A study of Mus musculus with 12 samples.

Results

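The genes described here are 6 IGF binding proteins, Igfbp1, Igfbp2, Igfbp3, Igfbp4, Igfbp5 and Igfbp7, with the insulin receptor Insr and the receptor's adaptor proteins Irs1 and Irs2. They were taken by gene symbol, and the transcript cluster with the highest mean over all arrays stood for a gene, which gave 9 genes of the 22180 genes measured under a single symbol. The livers came from 6 Ppara KO and 6 wild-type (WT) female mice, all on a C57Bl/6 background, aged 12 to 14 weeks and kept on 12 hours of light and 12 hours of dark. Ppara encodes PPARα, a nuclear receptor that is activated by fatty acids and drives fatty acid oxidation in the fasted liver. The Ppara KO label names no deleted part, no Cre and no tissue restriction, and both genotypes are given with no treatment. Each animal gave 1 MoGene 2.0 ST array, and the labels used here state neither the feeding state nor the hour of collection. The values are log2 intensities after RMA, and their scale depends on the probes of each gene, so levels are compared between animals for 1 gene and not between genes.

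Insulin-like growth factors travel in plasma bound to IGF binding proteins, which lengthen their life in the circulation and limit their access to the receptor. The liver is the main source of circulating IGF1. It secretes IGFBP1, whose gene is strongly repressed by insulin and switched on in fasting, and IGFBP2. Insulin itself acts on hepatocytes through the insulin receptor, a tyrosine kinase, and through the docking proteins IRS1 and IRS2, which recruit PI 3-kinase and so activate AKT. AKT keeps FOXO transcription factors out of the nucleus, and Igfbp1 and Irs2 are both genes that FOXO1 is known to switch on.

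Of the 9 genes, 3 were lower in Ppara KO livers: Igfbp1, Igfbp2 and Irs2. None was higher, and 6 did not pass the test, limma's moderated test, with Benjamini-Hochberg adjustment across the whole set of 22180 genes and a gene called at an adjusted p under 0.05. At an unadjusted p under 0.05 there were 4 genes in all, none of them higher. Across all genes tested, 10.2% were called, 5.77% lower and 4.46% higher in Ppara KO, beside 33.3% of these genes called lower. The median difference over the 9 genes, Ppara KO minus WT, was -0.23 log2 units, against 0.01 over all genes. In each of the 3 genes the values of the Ppara KO animals all lay under those of the WT animals, which 3.78% of all genes did, while 2.73% lay wholly above. These counts describe 9 chosen genes and are no test of the group. All 9 genes lay at or above the median level of the genes tested, and each had a value on every array. In a fit of the genes at or above that level alone, 1544 were lower and 1258 higher, against 1279 and 989 over all genes. The counts of that fit are out of fewer genes, so the share called rose by more than the counts did. The shares over all genes thus understate how often genes of this level were called. In that fit 4 of the 9 genes were lower.

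The upstream sequences of the 3 genes that were lower, and of Irs1 for contrast, are printed because the known regulators of these genes read DNA there. Each is the 250 bases that end just before the transcription start in the RefSeq promoter table of GRCm38.p6, written 5′ to 3′ on the strand of the gene. They are chr11:7197537-7197786 (plus strand) for Igfbp1, chr1:72824230-72824479 (plus strand) for Igfbp2, chr8:11008930-11009179 (minus strand) for Irs2 and chr1:82291440-82291689 (minus strand) for Irs1. Capitals mark matches, on either strand, to the E-box CACGTG and to CAAAACA, the core letters of the insulin response element.
Igfbp1: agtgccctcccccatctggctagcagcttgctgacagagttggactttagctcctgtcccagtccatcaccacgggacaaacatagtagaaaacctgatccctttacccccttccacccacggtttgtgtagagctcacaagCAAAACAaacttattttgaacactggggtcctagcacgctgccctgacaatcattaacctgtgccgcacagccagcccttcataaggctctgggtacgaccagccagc
Igfbp2: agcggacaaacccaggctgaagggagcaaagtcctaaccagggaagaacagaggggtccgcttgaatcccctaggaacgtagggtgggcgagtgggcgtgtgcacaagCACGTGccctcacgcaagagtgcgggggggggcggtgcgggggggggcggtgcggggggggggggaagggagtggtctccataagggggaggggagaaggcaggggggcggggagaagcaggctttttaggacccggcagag
Irs2: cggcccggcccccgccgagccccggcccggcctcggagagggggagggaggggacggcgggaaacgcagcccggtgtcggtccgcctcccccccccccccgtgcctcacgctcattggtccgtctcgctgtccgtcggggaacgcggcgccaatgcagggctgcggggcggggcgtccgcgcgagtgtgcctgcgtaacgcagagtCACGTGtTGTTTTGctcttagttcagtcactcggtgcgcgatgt
Irs1: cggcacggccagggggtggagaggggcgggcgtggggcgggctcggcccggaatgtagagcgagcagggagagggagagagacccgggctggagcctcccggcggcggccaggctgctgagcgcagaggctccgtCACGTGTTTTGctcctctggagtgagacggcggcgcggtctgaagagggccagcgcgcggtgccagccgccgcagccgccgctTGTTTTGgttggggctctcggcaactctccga

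Igfbp1 held CAAAACA from 108 to 102 bases before its start. Igfbp2 held the E-box from 142 to 137 bases before its start, and a further window that the table gives for it held none of the motifs searched. Irs2 held the E-box from 44 to 39 bases before its start and CAAAACA on the opposite strand from 37 to 31. Irs1, which was not called, held an E-box from 115 to 110 bases before its start and CAAAACA on the opposite strand from 111 to 105, where the matches overlap, and again from 32 to 26. Among all 32851 windows, 6.02% held the E-box and 5.56% held CAAAACA. The string GTAAACA, searched as one FOXO motif, was in 3.17% of windows. The direct repeat to which PPARα binds with RXR, searched as AGGTCA, any base and AGGTCA again, was in 0.0335%. Neither of these was in a window of these genes. The core letters of the insulin response element, found in Igfbp1, Irs2 and Irs1, were counted apart. The windows are thus not shown to lack every string that FOXO factors read. RefSeq windows were found for 8 of the 9 genes, all but Insr. A match is a string of letters and not a site, and a missing match says only that these letters are not in this stretch.

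Ppara itself, on chromosome 15, was read first as a check of the labels. Its values had a lowest of 7.81, a median of 8.04 and a highest of 8.16 in Ppara KO livers, and 7.71, 8.05 and 8.14 in WT livers. The groups overlapped fully, and the difference of 0.03 had a p of 0.712 in an exact permutation test. The cluster's probes are not placed against the disrupted part of the gene here, so this reading does not check the genotype.

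Igfbp1 was 2.24-fold lower in Ppara KO livers. Its log2 values in the Ppara KO animals 1 to 6 were 9.91, 9.19, 9.59, 9.09, 10.22 and 9.99, and in the WT animals 1 to 6 they were 10.80, 10.83, 10.85, 10.96, 10.80 and 10.73. Every Ppara KO animal lay below every WT animal, and the WT animals lay close together while the Ppara KO animals were spread out. The means were 9.66 ± 0.46 in Ppara KO and 10.83 ± 0.08 in WT (SD, n = 6 each), a difference of -1.16 ± 0.16 (SE), with a 95% interval of -1.51 to -0.82 and an adjusted p of 2.99e-04 in limma. Igfbp1 stood 73rd by size among the 1279 genes that were lower. The SD of its Ppara KO values was 6.09 times that of its WT values, and 0.122% of all genes had a ratio at least as high. The gene lies at chr11:7197787-7202546 in GRCm38.p6.

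Igfbp2, an abundant carrier of IGFs in plasma that can also bind integrins, was 1.89-fold lower. Its values were 8.47, 8.03, 7.92, 8.34, 8.39 and 8.59 in Ppara KO animals 1 to 6, and 9.45, 9.33, 9.28, 9.01, 9.15 and 9.01 in WT animals 1 to 6. The highest Ppara KO animal stayed below the lowest WT animal, and WT animals 1, 2 and 3 were the 3 highest of all. The means were 8.29 ± 0.26 in Ppara KO and 9.20 ± 0.18 in WT (SD, n = 6 each), a difference of -0.92 ± 0.12 (SE), with a 95% interval of -1.17 to -0.66 and a limma adjusted p of 1.51e-04. It stood 132nd among the genes that were lower, and its SD in Ppara KO was 1.45 times that in WT, a ratio reached by 23.4% of genes. Igfbp2 lies at chr1:72824480-72852474.

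**Figure D1:**
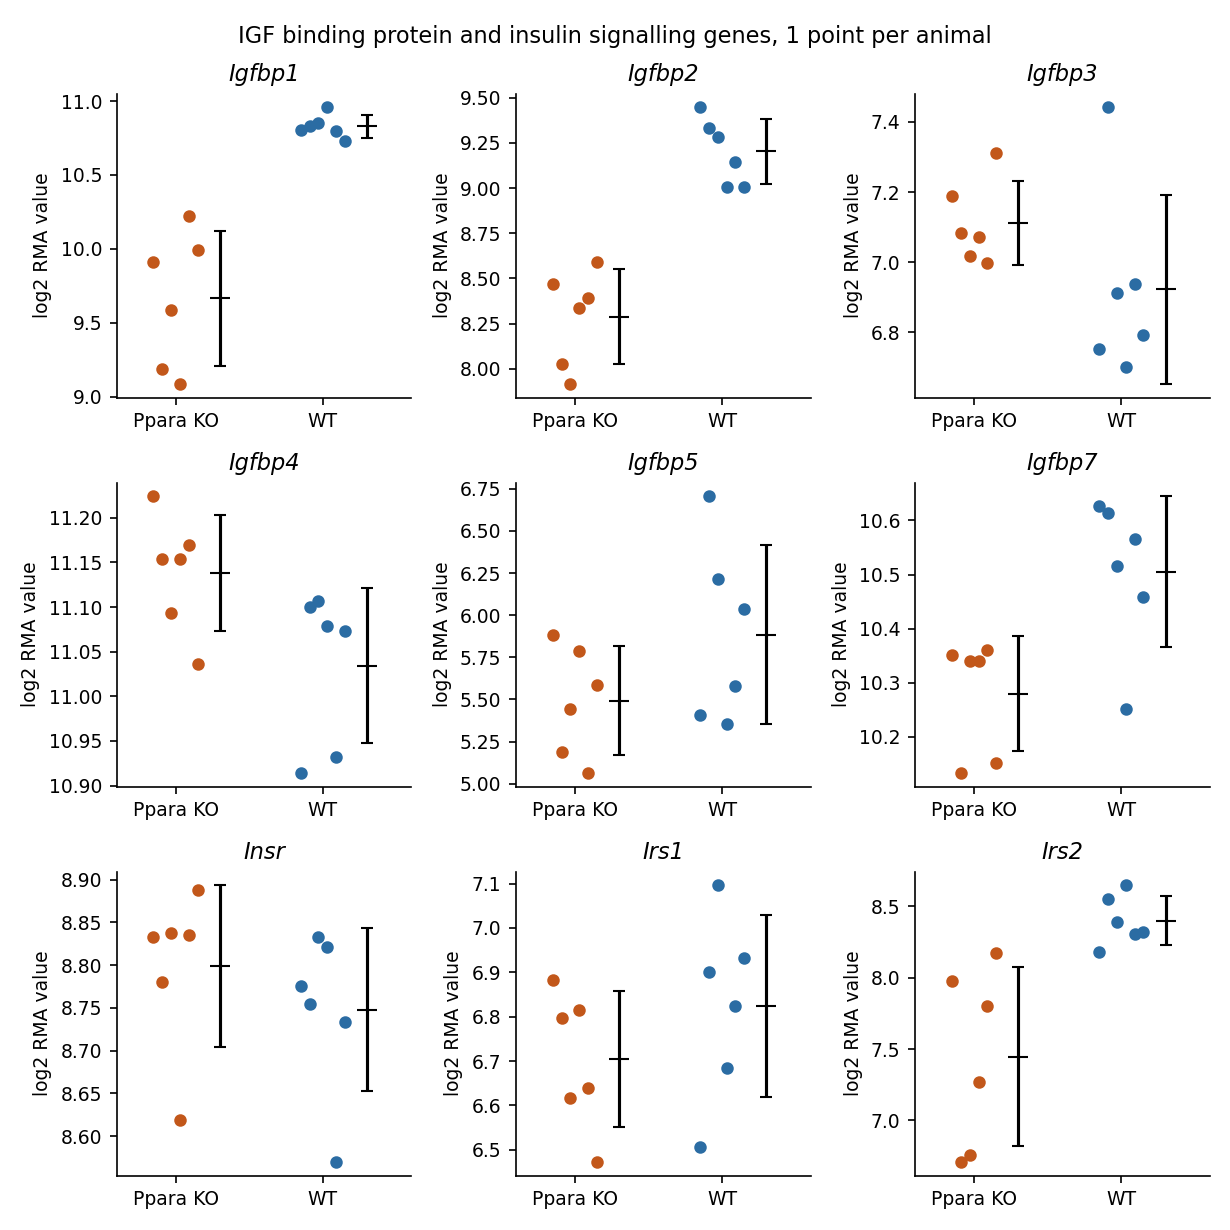
Log2 RMA value of each of the 9 genes in each liver, 1 panel per gene with its own vertical axis, with Ppara KO animals on the left and WT animals on the right of each panel and the mean ± SD of each genotype (n = 6) beside its points. Igfbp1, Igfbp2 and Irs2 show no overlap between genotypes, and the Ppara KO points of Igfbp1 and Irs2 are spread over a wider range than the WT points.

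Igfbp3, the chief plasma carrier of IGFs, did not pass the test. Its lowest, median and highest values were 7.00, 7.08 and 7.31 in Ppara KO and 6.70, 6.85 and 7.44 in WT, a difference of 0.19 ± 0.11 (SE, adjusted p = 0.347 in limma). WT animal 2, at 7.44, was above all other animals of either genotype, and the other WT animals were at or below 6.94. Without WT animal 2 the difference was 0.29 with an adjusted p of 0.0321, so the gene would then be called higher. Igfbp3 lies at chr11:7206086-7215498.

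Igfbp4 restrains IGF action until it is cut by the protease PAPPA. Its lowest, median and highest values were 11.04, 11.15 and 11.22 in Ppara KO and 10.91, 11.08 and 11.11 in WT, with overlapping groups. The difference of 0.10 ± 0.06 had an adjusted p of 0.357 in limma, and 0.0390 in an exact permutation test that is not adjusted for other genes. Igfbp4 lies at chr11:99040005-99052655.

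Igfbp5 encodes a form that binds the extracellular matrix. It had the lowest, median and highest values 5.06, 5.51 and 5.88 in Ppara KO and 5.36, 5.81 and 6.71 in WT, a difference of -0.39 ± 0.21 with an adjusted p of 0.300. The groups overlapped, and WT animals varied by 0.53 (SD) around their mean. Without WT animal 2, the highest at 6.71, the difference was -0.23. The gene lies at chr1:72858065-72874865.

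Igfbp7 binds IGFs only weakly and is made by blood vessels. Its values were 10.35, 10.13, 10.34, 10.34, 10.36 and 10.15 in Ppara KO animals 1 to 6, and 10.63, 10.61, 10.52, 10.25, 10.57 and 10.46 in WT animals 1 to 6. All Ppara KO animals lay below all WT animals but WT animal 4. The difference of -0.23 ± 0.08 had a limma adjusted p of 0.0823 and did not pass. In an exact permutation test that is not adjusted for other genes its p was 0.0130. Without WT animal 4 the difference was -0.28 with a limma adjusted p of 0.0242. In the 12 markers of sinusoidal and vascular endothelium, none of which was called, the mean level per animal was 8.02 to 8.24 in Ppara KO and 8.04 to 8.30 in WT, and WT animals 4 and 6 had the lowest WT means, both 8.04. The part of endothelial content in the Igfbp7 values was not tested, and in whole liver fewer cells of a type and less RNA per cell cannot be told apart. Igfbp7 lies at chr5:77349240-77408045.

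Among the relatives outside the chosen set, Igfbp6 differed by -0.29 (adjusted p = 0.132) and Igfbpl1 by -0.01 (adjusted p = 0.962), and neither passed.

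**Figure D2:**
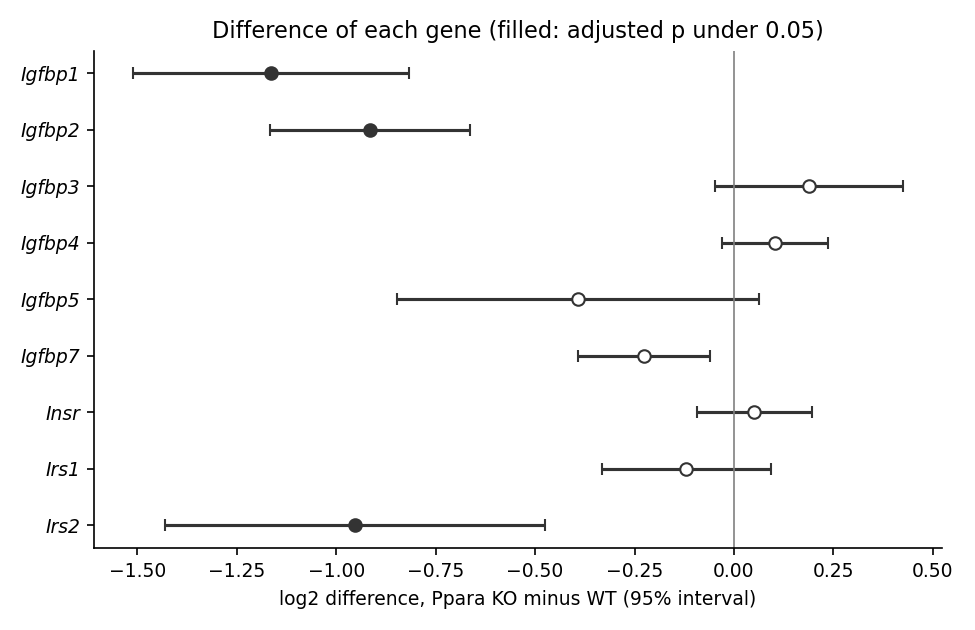
Difference in log2 RMA value, Ppara KO minus WT, for each of the 9 genes, with the 95% interval of limma as a horizontal bar. The intervals of Igfbp1, Igfbp2 and Irs2 lie far below 0, that of Igfbp7 lies just below 0 although its adjusted p of 0.0823 missed the threshold, and those of the other genes include 0.

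Insr, the receptor, was not called. Its lowest, median and highest values were 8.62, 8.83 and 8.89 in Ppara KO and 8.57, 8.76 and 8.83 in WT, a difference of 0.05 ± 0.07 with an adjusted p of 0.726. The 95% interval of the difference ran from -0.09 to 0.20. The difference was 0.02 without WT animal 5, 0.09 without Ppara KO animal 4 and 0.03 without Ppara KO animal 6. Insr lies at chr8:3150922-3279649.

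Irs1 was not called either. Its lowest, median and highest values were 6.47, 6.72 and 6.88 in Ppara KO and 6.51, 6.86 and 7.10 in WT, a difference of -0.12 ± 0.10 with an adjusted p of 0.536. A dimmer cluster of the same gene, with means of 3.34 in Ppara KO and 3.63 in WT, was not called, and the mean of both clusters differed by -0.20. The difference of the brighter cluster was -0.18 without WT animal 1 and -0.07 without WT animal 3 or Ppara KO animal 6. Irs1 lies at chr1:82233105-82291439.

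Irs2, the adaptor that hepatocytes raise in fasting, was 1.93-fold lower. Its values were 7.98, 6.71, 6.76, 7.27, 7.80 and 8.17 in Ppara KO animals 1 to 6, and 8.18, 8.55, 8.39, 8.65, 8.31 and 8.32 in WT animals 1 to 6. Ppara KO animals 2 and 3 were the lowest, and the highest Ppara KO animal, number 6, lay just under the lowest WT animal, number 1. The means were 7.45 ± 0.63 in Ppara KO and 8.40 ± 0.17 in WT (SD, n = 6 each), a difference of -0.95 ± 0.22 (SE), with a 95% interval of -1.43 to -0.47 and a limma adjusted p of 0.0130. The SD in Ppara KO was 3.67 times that in WT, a ratio that 0.789% of genes reached, and Irs2 stood 115th among the genes that were lower. Irs2 lies at chr8:10984681-11008929. Another cluster that carries Irs2 beside a second symbol was left out. It was dimmer, with means of 4.57 in Ppara KO and 4.68 in WT. Its difference of -0.10 was not called (limma adjusted p over all clusters = 0.708), so it did not show the fall.

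The Irs2 call was also read without the WT animals that had high adipocyte markers. Of 8 such markers 3 were lower and none higher, and at an unadjusted p under 0.05 there were 7 lower and none higher. Their mean level per animal was 4.28 to 4.56 in Ppara KO and 4.50 to 6.13 in WT. WT animals 1, 3 and 5 stood at 5.37, 6.13 and 6.12 and the other WT animals at 4.50 to 4.84. Without WT animals 1, 3 and 5 none of the 3 called markers kept its call (adjusted p of 0.144 for Plin4, 0.218 for Lipe and 0.0998 for Adipoq). In those 3 animals Irs2 stood at 8.18, 8.39 and 8.31, among the 4 lowest WT values. Without them the Irs2 difference was as large, at -1.06, but with 3 WT animals its adjusted p was 0.0721 and the call ended, while Igfbp1 differed by -1.17 (adjusted p = 0.0118) and Igfbp2 by -0.83 (adjusted p = 0.00911). An exact permutation test over the animals gave a p of 0.00216 for each of Igfbp1, Igfbp2 and Irs2, the smallest it can give. Of the remaining adaptors, Irs3 (-0.13, adjusted p = 0.601) and Irs4 (-0.00089, adjusted p = 0.997) were not called.

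Within the Ppara KO group the same animals stood high in all 3 genes. Ppara KO animals 1, 5 and 6 had the 3 highest values of Irs2, of Igfbp1 and of Igfbp2, and animals 2, 3 and 4 had the 3 lowest of each. The order inside these trios was not the same, since animal 4 was the lowest in Igfbp1 and animal 2 in Irs2. In the WT group, where Igfbp1 spanned only 10.73 to 10.96, animal 4 was the highest in both Irs2 and Igfbp1 and the lowest in Igfbp2. These orders describe 6 animals a genotype and have no test.

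**Figure D3:**
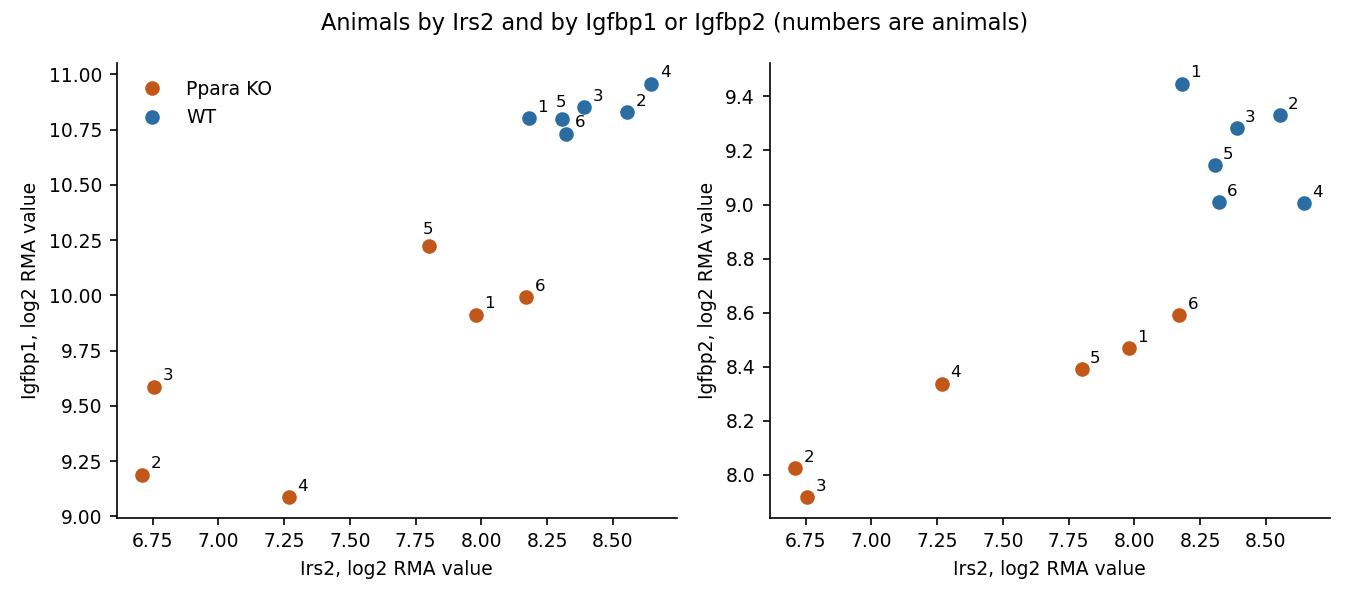
Each liver by its log2 value of Irs2 on the horizontal axis and of Igfbp1 (left) or Igfbp2 (right) on the vertical axis, with the animal's number beside the point. Ppara KO animals 2, 3 and 4 lie towards the lower left and animals 1, 5 and 6 nearer the WT animals in both panels.

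Some of these genes are neighbours or close relatives, so the change of one was set against the change of the other within each array. Igfbp1 and Igfbp3 lie side by side on chromosome 11 with 3539 bases between them, and Igfbp2 and Igfbp5 on chromosome 1 with 5590. The log2 ratio of Igfbp1 to Igfbp3 averaged 2.55 ± 0.44 in Ppara KO and 3.91 ± 0.29 in WT (SD, n = 6 each). It ran from 2.02 to 3.22 in Ppara KO and from 3.39 to 4.26 in WT, with no overlap, and differed by -1.35 (exact permutation p = 0.00216, 0.00649 after Benjamini-Hochberg adjustment over 3 ratios). The size of a ratio depends on the probes of the genes, and only its difference between genotypes is read. Each of the 3 ratios set a gene called lower over a neighbour or relative that was not called. Its p therefore draws on the same values as those calls and is no separate support for them. Adjustment over 3 ratios does not allow for that choice. On chromosome 11 the fall of Igfbp1 was not seen in Igfbp3.

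The ratio of Irs2 to Irs1 averaged 0.74 ± 0.69 in Ppara KO and 1.58 ± 0.24 in WT, and differed by -0.83 (exact permutation p = 0.0216, 0.0325 adjusted over the 3 ratios). The difference missed the threshold without WT animal 4 (-0.75, exact permutation p = 0.0541) and without WT animals 1, 3 and 5 (exact permutation p = 0.0714). The ratio of Igfbp2 to Igfbp5 averaged 2.80 ± 0.33 in Ppara KO and 3.32 ± 0.52 in WT, and its difference of -0.52 did not pass (exact permutation p = 0.0649, the same after adjustment). It passed unadjusted without WT animal 2 (-0.66, exact permutation p = 0.0238) or without Ppara KO animal 5 (-0.63, exact permutation p = 0.0325).

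**Figure D4:**
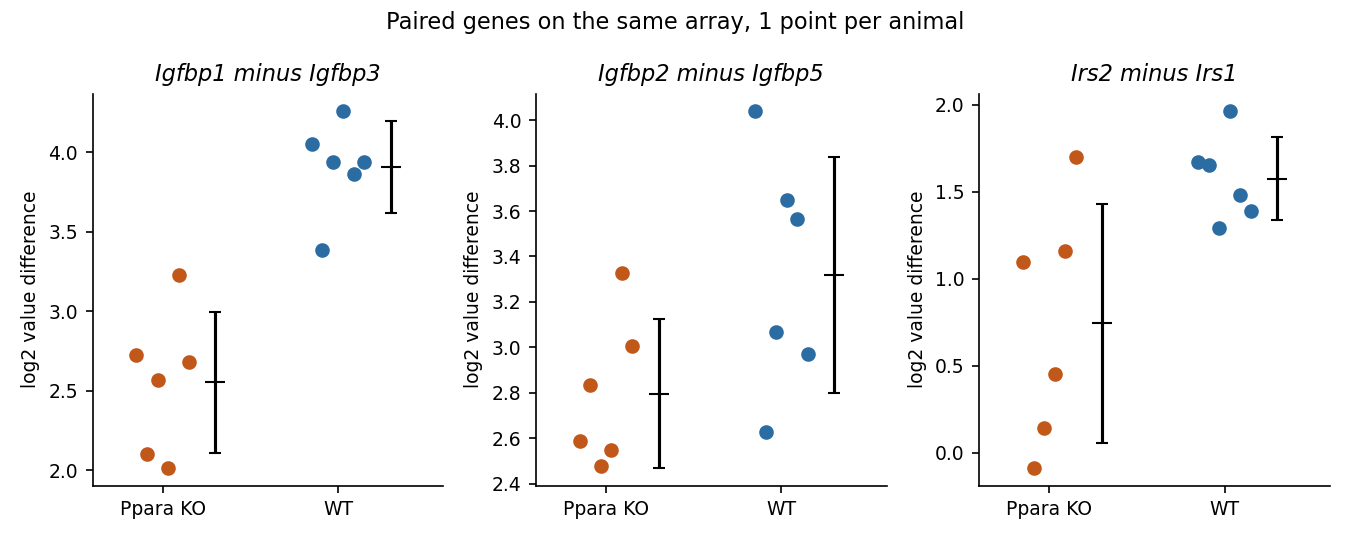
Within-array log2 ratio of Igfbp1 to Igfbp3, of Igfbp2 to Igfbp5 and of Irs2 to Irs1 in each liver, with Ppara KO animals left of WT animals in each panel and the mean ± SD of each genotype (n = 6) beside its points. The ratio of Igfbp1 to Igfbp3 separates the genotypes, and the other ratios overlap.

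The wider pathway was read through 5 lists of genes. Without the 9 genes, the lists held 87 genes, of which 11 (12.6%) were higher and 6 (6.90%) lower in Ppara KO, beside 4.46% higher and 5.77% lower over all genes tested. Their median difference was -0.02. Most of them lay at or above the median level, where calls were commoner than over all genes, so these shares are not like for like.

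Of 12 IGF ligands, receptors and complex partners, 1 was higher and none lower, with a median difference of -0.01, and at an unadjusted p under 0.05 there were 1 higher and 2 lower. The growth hormone receptor Ghr, which conveys the signal for hepatic IGF1 synthesis, was higher, with lowest, median and highest values of 8.55, 8.70 and 8.80 in Ppara KO and 8.30, 8.39 and 8.52 in WT. The groups did not overlap, and the difference was 0.29 ± 0.06 (adjusted p = 0.00825). Igf1 had values of 9.90, 10.13 and 10.34 in Ppara KO and 10.28, 10.37 and 10.54 in WT, a difference of -0.25 ± 0.08 that just missed the threshold (adjusted p = 0.0511) and passed it without Ppara KO animal 2 (adjusted p = 0.0275). Igfals, which holds IGF and IGFBP3 in the large plasma complex, differed by -0.07 and was not called.

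Of 27 genes that carry the signal from the receptor to AKT and FOXO, 3 were higher and none lower, with a median difference of 0.03, and at an unadjusted p under 0.05 there were 6 higher and 6 lower. Foxo3, a FOXO transcription factor, was higher by 0.48 ± 0.09 (adjusted p = 0.00209), with 6.61 to 7.09 in Ppara KO and 6.20 to 6.54 in WT. Pik3r1, the regulatory subunit of PI 3-kinase, was higher by 0.51 ± 0.11 (adjusted p = 0.00923). Pik3cb, a catalytic subunit, was higher by 0.24 ± 0.07 (adjusted p = 0.0292), a call that ended without any of WT animals 1, 3 or 4 or Ppara KO animals 1, 3 or 6 (adjusted p up to 0.0662). Gsk3b, a kinase that AKT inhibits, differed by 0.10, and Eif4ebp1, a brake on translation that mTOR releases, by 0.23, and neither passed with all animals, although Eif4ebp1 did without Ppara KO animal 4 (adjusted p = 0.0406).

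Of 21 genes listed as negative regulators of insulin signalling, 3 were higher and 2 lower, with a median difference of -0.03. The list also holds inhibitors of mTOR, and its counts give no net effect on the signal to AKT. Ide, the insulin-degrading enzyme, was lower by -0.59 ± 0.08 (adjusted p = 1.91e-04), with 8.85 to 9.04 in Ppara KO and 9.30 to 9.79 in WT. Ceacam1, which helps hepatocytes to take up and clear insulin, was lower by -0.22 ± 0.06 (adjusted p = 0.0319), a call that ended without any of WT animals 1, 4, 5 or 6 or Ppara KO animals 1, 2 or 3 (adjusted p up to 0.0734). Those that were higher were Sesn2 (0.57 ± 0.11, adjusted p = 0.00299), a sestrin that restrains mTORC1, Trib3 (0.51 ± 0.12, adjusted p = 0.0143), a pseudokinase that binds AKT, and Deptor (0.26 ± 0.07, adjusted p = 0.0211), an mTOR inhibitor whose call ended without Ppara KO animal 6 (adjusted p = 0.0502). Ahsg differed by -0.00073 and Grb7 by -0.22, and neither was called with all animals, although Grb7 was without Ppara KO animal 1 (adjusted p = 0.0183).

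Of 18 hepatic genes that insulin lowers through FOXO1, a list that includes Igfbp1, Irs2 and Insr, 3 were higher and 4 lower, with a median difference of -0.04. Beside Igfbp1 and Irs2, the lower genes were Angptl4 and G6pc. Angptl4, an inhibitor of lipoprotein lipase that PPARα also activates, had 6.88, 7.57 and 8.36 as lowest, median and highest values in Ppara KO and 8.26, 8.74 and 9.31 in WT, a difference of -1.11 ± 0.22 (adjusted p = 0.00423). Its groups overlapped by a narrow margin. G6pc, the catalytic subunit of glucose-6-phosphatase, had 10.16 to 11.41 in Ppara KO and 11.31 to 11.63 in WT, a difference of -0.61 ± 0.17 (adjusted p = 0.0343), and its call ended without any of WT animals 1, 2, 3, 4 or 6 or Ppara KO animals 1 or 6 (adjusted p up to 0.0767).

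The genes of the same list that were higher were Slc37a4, Klf15 and Pck1. Slc37a4, the transporter that feeds glucose-6-phosphate to glucose-6-phosphatase, was higher by 0.51 ± 0.08 (adjusted p = 0.00110). Klf15, a transcription factor of amino acid breakdown and gluconeogenesis, was higher by 0.56 ± 0.11 (adjusted p = 0.00486), and Pck1, the cytosolic enzyme that makes phosphoenolpyruvate, by 0.30 ± 0.09 (adjusted p = 0.0374). The call of Pck1 ended without any of WT animals 1, 3 or 6 or Ppara KO animals 1, 2, 5 or 6 (adjusted p up to 0.0837). The members of the list thus lay on both sides of 0. Tat, a tyrosine-degrading enzyme, differed by 0.11 and Cpt1a, the entry enzyme of mitochondrial fatty acid oxidation, by 0.23, and neither was called.

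Of 15 hepatic genes that insulin raises, 1 was higher and 2 lower, with a median difference of -0.20. Thrsp, a lipogenic nuclear protein, was higher by 0.93 ± 0.13 (adjusted p = 2.68e-04), with 10.19 to 10.96 in Ppara KO and 9.32 to 9.94 in WT. Pnpla3, a lipid droplet protein, had lowest, median and highest values of 4.41, 4.91 and 6.09 in Ppara KO and 5.16, 7.04 and 7.72 in WT, a difference of -1.80 ± 0.39 (adjusted p = 0.00866). Scd1, the desaturase of stearoyl-CoA, was lower by -0.42 ± 0.11 (adjusted p = 0.0195). Without WT animals 1, 3 and 5, which keeps 3 WT animals, the call of Pnpla3 ended (-1.36, adjusted p = 0.135), as did that of Scd1 (-0.35, adjusted p = 0.206). In the other lists, calls that ended with those animals left out included Ghr (difference 0.28, adjusted p = 0.0974), Foxo3 (0.42, adjusted p = 0.0575), Pik3r1 (0.47, adjusted p = 0.103) and Trib3 (0.57, adjusted p = 0.0702), whose differences stayed about as large as with all animals, and Angptl4 (-0.81, adjusted p = 0.0952). By adjusted p, Ide (0.00845), Sesn2 (0.0224), Slc37a4 (0.0244), Klf15 (0.0424) and Thrsp (0.00371) stayed called. Elovl5 (-0.32), a fatty acid elongase, was not called with all animals but was without WT animal 2 or Ppara KO animal 5 (adjusted p down to 0.0150), and Insig1 (0.0046) was not called.

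**Figure D5:**
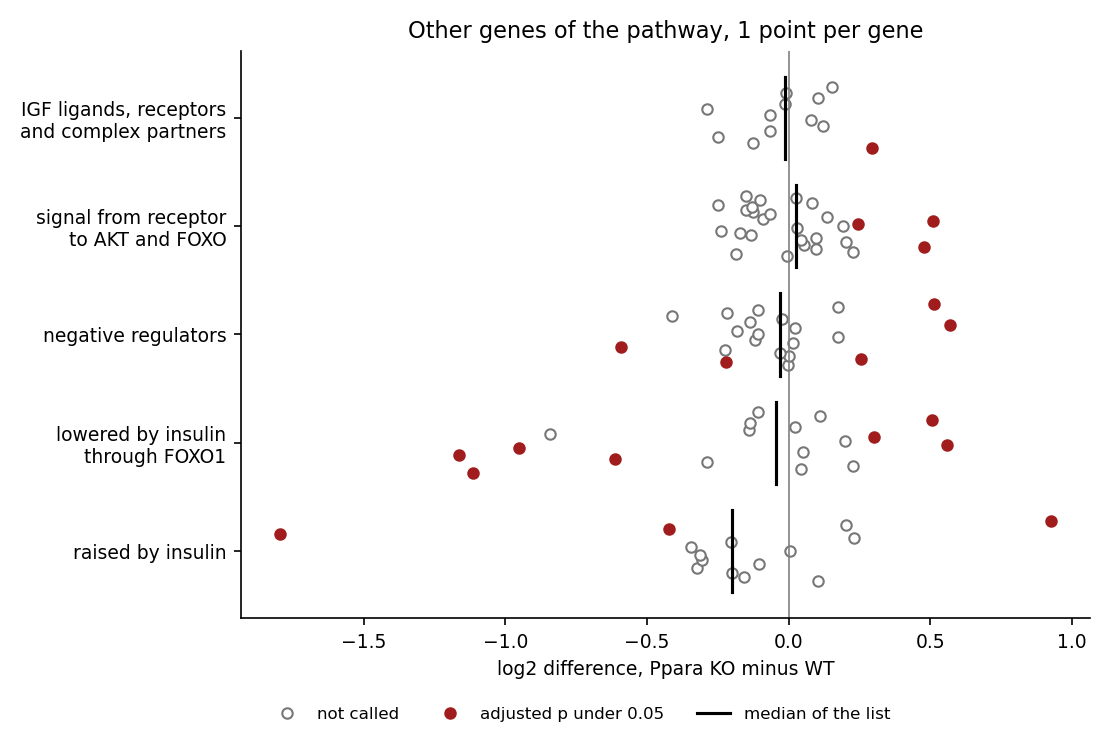
Difference in log2 RMA value, Ppara KO minus WT, of every measured gene of the 5 pathway lists, 1 point per gene, filled where the adjusted p was under 0.05, with a bar at each list's median. The list lowered by insulin through FOXO1 has filled points on both sides of 0, and the list medians lie between -0.20 and 0.03.

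For each of the 3 lower genes, the transcripts that varied most like it were sought by Pearson correlation over the 12 arrays. The values were taken minus their genotype mean. The search covered 10355 genes at or above the median level. Predicted and placeholder symbols and some families, such as microRNAs and olfactory receptors, were left out. The coefficients describe the same arrays that were searched and carry no test, and in Igfbp1 and Irs2 the wide Ppara KO values weigh most. Igfbp1 was followed most closely by Gys2, the liver's glycogen synthase (r = 0.930), then by Tbxas1 (0.877) and Tgfbr2 (0.875). Within the WT animals alone Tbxas1 and Tgfbr2 followed it only weakly (r = 0.177 and 0.113). Gys2 was itself higher in Ppara KO by 0.76 (adjusted p = 0.00184), against the direction of Igfbp1, and its likeness lay in the Ppara KO animals (r = 0.972) and not in the WT animals (r = -0.545). Igfbp2 was followed by Pde4c (0.956), Palmd (0.920) and Aqp4 (0.917). Of these Palmd was lower by -0.42 (adjusted p = 0.0182) and the water channel Aqp4 higher by 1.47 (adjusted p = 1.43e-05), while each tracked Igfbp2 within both genotypes (r between 0.906 and 0.951). Irs2 was followed by Pdgfb (0.935), a growth factor subunit, Imp3 (0.897) and Fbxw8 (0.892), of which Imp3 was higher by 0.33 (adjusted p = 0.00760). Within the WT animals r with Irs2 was 0.801 for Pdgfb, 0.276 for Imp3 and 0.812 for Fbxw8. Pdgfb and Tbxas1, with mean values of 4.85 and 4.97, lay little above the median level of 4.57.

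Markers of liver cell types and clock genes were read beside these results. The hepatocyte markers had mean levels of 12.19 to 12.30 in Ppara KO and 12.21 to 12.24 in WT, none of 7 being called and none at an unadjusted p under 0.05. None of 12 stellate and fibroblast markers was called (6.64 to 6.88 in Ppara KO, 6.63 to 6.96 in WT), with 1 higher and 2 lower unadjusted, and of the 12 endothelial markers 4 were lower unadjusted. Of 10 Kupffer cell and macrophage markers 1 was higher (Cd5l, 0.45), at a mean level of 7.64 to 8.41 in Ppara KO and 7.39 to 7.80 in WT. Unadjusted, 3 of these were higher and none lower. Of 5 bile duct markers 2 were lower (Krt19, -0.26, and Sox9, -0.39), at 4.02 to 4.45 in Ppara KO and 4.16 to 4.46 in WT, with no further gene unadjusted. The 3 lower adipocyte markers were Plin4 (-0.68), Lipe (-0.37) and Adipoq (-0.92), of which Adipoq lost its call without WT animal 3 or any of Ppara KO animals 1, 2, 3 or 6 (adjusted p up to 0.0661). The calls of Cd5l, Krt19 and Sox9 each ended on leaving out any of 6 to 8 single animals (adjusted p up to 0.0835). None of 5 lymphocyte markers was called, with 1 higher unadjusted, and none of 2 markers of pancreas acinar cells, with none unadjusted.

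Of 19 clock genes, 13 were higher and 4 lower in Ppara KO, while Rora (0.03) and Cry1 (-0.06) were not called. Dbp (3.49) and Npas2 (-3.48) had the largest differences, larger than that of any gene of the insulin and IGF lists. Others, such as Bhlhe40 (0.50), differed by less than Igfbp1. Dbp had values of 9.05 to 10.17 in Ppara KO and 5.99 to 7.09 in WT, and Npas2 4.05 to 4.63 in Ppara KO and 7.60 to 7.95 in WT. Igfbp1, Irs2, G6pc and other genes of these lists change with feeding and the time of day, so genotype and clock state cannot be told apart in these livers.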

How the data were processed

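Liver RNA of 12 mice was measured on 12 MoGene 2.0 ST arrays, 1 per animal, 6 Ppara KO and 6 WT. The deposited values are log2 intensities that the authors made with RMA and Partek (versions not given in the sources used here), per the submitters' processing notes. RMA fits all arrays to a common distribution (array medians 4.13 to 4.17), which would hide a shift of most genes, and it compresses differences of dim genes. Genes were named from the platform annotation: of 41345 transcript clusters 23521 had a single symbol, 1814 several and 16010 none listed, and the cluster with the highest mean stood for each of 22180 genes. The fit used limma 3.58.1 under R 4.3.3 (lmFit, eBayes, 1 mean per genotype, no covariate) with Benjamini-Hochberg adjustment over all genes, and was tested on simulated data. The number of arrays limits the precision (median SE of a difference 0.0926). Permutation tests were exact and 2-sided. Coordinates are those of RefSeq for GRCm38.p6.

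The 9 genes and all lists were chosen with earlier results of these data known, and the lists were written from textbook knowledge. Named were the 9 genes, from each pathway list up to 6 called genes of smallest adjusted p and up to 2 of the highest level not called, from each marker list up to 5 called genes, and 3 genes most like each called gene. Pck1 was added after its value was seen, to complete a count. Alternatives covered the variance prior, array weights, renormalization, centring, dim genes, cluster choice, thresholds, the replicate number as a block and animals left out. The ratios between genes had their alternatives chosen after seeing the data.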

Additional observations from a re-analysis of the deposited data

Results flagged for a closer look

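In 8 of the 120 groups of 6 values that were looked at, 1 animal stood apart from the others by Dixon's ratio of its gap to the nearest animal over the whole range. Chance alone flags about 1 group in 20. Among the 9 genes of IGF binding and insulin signalling, only Igfbp3 had such an animal: WT animal 2 at 7.44, against 6.94 for the nearest (ratio 0.681), and without it Igfbp3 was called higher in Ppara KO. Foxo3 had Ppara KO animal 6 at 7.09, against 6.79 for the nearest (0.639). Tat had Ppara KO animal 1 at 12.22 below the others (0.66) and WT animal 1 at 11.96 (0.775). Among the clock genes, Npas2 had Ppara KO animal 5 at 4.63 (0.687) and WT animal 6 at 7.95 (0.718), Dbp had WT animal 2 at 7.09 (0.691), and Cry1 had Ppara KO animal 2 at 6.84, against 6.04 for the nearest (0.707).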

How the results depend on the processing

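Igfbp1 and Igfbp2 stayed called lower under all 22 alternatives, with differences of -1.28 to -1.05 and -0.98 to -0.83, and Irs2 under 21, with -1.10 to -0.80. Those 22 hold the unadjusted permutation test but not the stricter thresholds, treat against 1.2-fold and an adjusted p under 0.01. Irs2 lost its call under each of these stricter thresholds, while Igfbp1 and Igfbp2 kept theirs. None of the 9 genes changed sign. Igfbp7 was called lower with a trended prior (adjusted p = 0.0304), when dim genes were left out (0.0336) and without WT animal 4. It also passed the unadjusted exact permutation test (p = 0.0130), as did Igfbp4 (p = 0.0390). Of the 9 genes, 4 were called lower with the trended prior and among brighter genes (those no dimmer than the median gene), 2 without WT animals 1, 3 and 5, by treat against 1.2-fold and at an adjusted p under 0.01, and 3 to 4 with 1 animal left out, when 0 to 1 were called higher. Over all genes, 390 were higher and 618 lower without WT animals 1, 3 and 5, 105 and 224 by treat, 418 and 652 at an adjusted p under 0.01, and 755 to 930 and 1029 to 1238 with 1 animal left out.

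For the IGF ligands list, the count higher was 0 without WT animals 1, 3 and 5 and by treat, and the count lower was 1 with the trended prior, renormalization, centring and brighter genes, and 0 to 1 with 1 animal left out. For the signal to AKT and FOXO, 5 were higher with the trended prior and brighter genes, 0 without WT animals 1, 3 and 5 and by treat, and 2 to 4 with 1 animal left out. Its count lower was 1 with the trended prior, 3 among brighter genes and 0 to 1 with 1 animal left out. For the negative regulators, 1 was higher without WT animals 1, 3 and 5 and at an adjusted p under 0.01, and 0 by treat. Their count lower was 1 by treat, at an adjusted p under 0.01 and with the block below, and 1 to 3 with 1 animal left out. For the genes lowered by insulin, 0 were higher by treat, 1 was lower without WT animals 1, 3 and 5 and by treat, and 2 at an adjusted p under 0.01. For the genes raised by insulin, 2 were higher with the trended prior and brighter genes, and 1 to 2 with 1 animal left out. Their count lower was 5 with the trended prior and brighter genes, 0 without WT animals 1, 3 and 5 and by treat, 1 at an adjusted p under 0.01, and 2 to 4 with 1 animal left out. The cause of these shifts was not tested beyond fewer animals, fewer genes or a stricter threshold.

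With the replicate number as a block, 687 genes were higher and 985 lower, 1596 of them among the calls without it. Irs2 kept its call (adjusted p = 0.0319), as did Igfbp1 and Igfbp2. No pairing by number was seen over all genes: the deviations of same-numbered animals correlated between -0.0471 and 0.0431, and 0 of 6 correlated best with its own number. A weak pairing, or one that touches few genes, could go unseen in such correlations. The distance of a signal from background cannot be read from RMA values, which limits what can be said of dim genes.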
